A study of Mus musculus with 9 samples.

Results

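Accessibility around 6 genes of the pluripotency network other than Nanog was followed through 9 ATAC-seq libraries of mouse embryonic stem cells: Pou5f1, Sox2, Sall4, Sall1, Lin28a and Utf1. ATAC-seq reads open chromatin through a transposase that inserts sequencing adapters where DNA is free of nucleosomes. The members were the counted regions that lay in or within 50 kb of the gene, or within 150 kb of Sox2, and had that gene as their nearest protein-coding gene. They numbered 129 of 157497 regions: 8 of Pou5f1, 54 of Sox2, 18 of Sall4, 35 of Sall1, 8 of Lin28a and 6 of Utf1. All 129 passed the filter on low counts, and their libraries held 5 to 2929 counts per region.

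The libraries formed 3 groups of 3. They are labelled NanogKO:Esrrb:Nanog, a Nanog knockout named with both Esrrb and Nanog, NanogKO:Esrrb, the knockout named with Esrrb, and NanogKO, the knockout alone, so every group carries the knockout. How Esrrb and Nanog were supplied, and at what level, is not stated. The titles code the groups 44JN, 44J and 44C6, and what the codes mean is not stated. The cell line name is N{delta}:cE:iN for both groups with Esrrb and N{delta} for NanogKO, so the genes in the group names and the difference between named lines cannot be told apart in a comparison with NanogKO. All cells grew in 10% serum with 1000 U/ml of leukaemia inhibitory factor and were sorted as positive for PECAM and negative for PDGFRA. According to the design text the series has 12 samples. Only 9 are covered here and the rest were not analysed here. Whether replicates came from different cultures is not stated, so each p-value rests on library-to-library spread that may be only technical. In such bulk libraries, fewer cells with an open region and less opening in every cell cannot be told apart.

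OCT4, the product of Pou5f1, and SOX2 bind DNA side by side at enhancers of pluripotent cells, and embryonic stem cells that lose either factor leave the undifferentiated state. SALL4 and SALL1 are zinc finger factors that bring the NuRD repressor complex to DNA, and SALL4 is also known to act on the Pou5f1 enhancer. LIN28A is an RNA-binding protein that keeps let-7 microRNA precursors from being processed. UTF1 is a chromatin protein of undifferentiated cells, whose gene has a known OCT4 and SOX2 enhancer just past its end.

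Promoters, as the 250 bases before the annotated start, were read from RefSeq on GRCm38.p6 for 5 of the 6 genes, Sall4 being named only. Pou5f1 (chr17:35505782-35506031, plus strand) and Sox2 (chr3:34649745-34649994, plus strand) are shown because the region at their start rose in both groups that carry Esrrb. Utf1 (chr7:139943606-139943855, plus strand) and Lin28a (chr4:134018817-134019066, minus strand) are shown beside them because theirs did not pass the test. RefSeq's start of Lin28a in this table (134018816) lies 380 bases inside the end of its gene span, so the printed window is within that span, while at the other 4 genes start and span end coincide. Capitals mark every match, on either strand, to AGGTCA, the core of the sites bound by nuclear receptors such as ESRRB, and to GGGCGG, the GC box.
Pou5f1: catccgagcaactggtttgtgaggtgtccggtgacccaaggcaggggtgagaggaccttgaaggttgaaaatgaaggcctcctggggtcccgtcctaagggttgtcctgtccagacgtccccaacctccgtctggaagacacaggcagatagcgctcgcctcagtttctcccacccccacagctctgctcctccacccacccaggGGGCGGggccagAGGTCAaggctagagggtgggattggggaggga
Sox2: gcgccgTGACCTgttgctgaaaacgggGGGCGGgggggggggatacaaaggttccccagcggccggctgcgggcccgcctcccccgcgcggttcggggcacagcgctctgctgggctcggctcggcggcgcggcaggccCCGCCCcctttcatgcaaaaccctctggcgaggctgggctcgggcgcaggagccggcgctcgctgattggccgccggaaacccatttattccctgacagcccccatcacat
Utf1: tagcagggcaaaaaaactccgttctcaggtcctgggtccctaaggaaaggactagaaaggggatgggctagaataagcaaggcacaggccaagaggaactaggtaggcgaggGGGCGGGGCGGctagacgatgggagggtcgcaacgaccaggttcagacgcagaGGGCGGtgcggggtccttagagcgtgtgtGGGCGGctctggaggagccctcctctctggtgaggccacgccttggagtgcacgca
Lin28a: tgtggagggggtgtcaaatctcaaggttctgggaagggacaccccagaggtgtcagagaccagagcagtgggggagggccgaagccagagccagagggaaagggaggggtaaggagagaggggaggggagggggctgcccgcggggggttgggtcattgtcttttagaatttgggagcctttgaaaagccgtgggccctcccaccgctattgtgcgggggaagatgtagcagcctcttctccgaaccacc
Pou5f1 held AGGTCA 33 to 28 bases before its start and a GC box 45 to 40 bases before it. Sox2 held AGGTCA on the opposite strand 244 to 239 bases before its start, and 2 GC boxes. Both AGGTCA matches lie outside the counted region at the start of their gene, as does the GC box of Pou5f1, whereas 1 of the 2 GC boxes of Sox2 and all 4 of Utf1 lie inside it. Utf1 held 4 GC boxes, 2 of them overlapping by 1 base, and no AGGTCA, while Lin28a and Sall1 held neither motif. The AGGTCA letters were chosen after these sequences had been seen, and 14% of 32851 RefSeq promoters of this length hold them, against 32.7% for the GC box. The 5 promoters held no match to TCAAGGTCA, the extended ESRRB site that contains AGGTCA (0.387% of promoters), to ATGCAAAT, the octamer bound by OCT4 (1.6%), or to CATTGTT, a SOX site (3.29%). A missing match says only that these letters are not in this window.

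Libraries held 35545030 to 58520948 counts. On the first principal component of all regions, with 63.6% of the variance, the groups lay in the order NanogKO:Esrrb:Nanog, NanogKO:Esrrb and NanogKO. On the next one, with 15.5%, NanogKO:Esrrb:Nanog replicate 3 (5.475) stood apart from replicates 1 and 2 (87.63 and 101.4). The region inside Nanog held 4.25, 4.49 and 6.17 CPM in NanogKO:Esrrb:Nanog, 3.02, 3.84 and 4.02 CPM in NanogKO:Esrrb, against 0.902, 0.937 and 1.56 CPM in NanogKO, and it checks the knockout only in part, since no label says which piece of the gene was removed. CPM are counts scaled to library size with TMM factors. Start regions of the undifferentiated stem cell markers, the starts of Pou5f1 and Sox2 included, summed to 108 to 126 CPM in NanogKO:Esrrb:Nanog, 99 to 126 CPM in NanogKO:Esrrb and 74.1 to 86.7 CPM in NanogKO, for the 5 of 7 markers with an annotated start.

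The markers of other cell types were read at their starts in the same way. Primitive endoderm had a region over the start of 2 of its 8 markers, Dab2 and Col4a1, which summed to 62.5 to 67.8 CPM in NanogKO:Esrrb:Nanog, 58 to 66.9 CPM in NanogKO:Esrrb and 61.6 to 70.4 CPM in NanogKO, and Pdgfra and Foxa2 had no region there. Trophoblast markers (3 of 5, mostly Cdx2) summed to 41.4 to 45.8 CPM in NanogKO:Esrrb:Nanog, 43.4 to 48.6 CPM in NanogKO:Esrrb and 45.5 to 55.7 CPM in NanogKO. Fibroblast markers (2 of 6) summed to 6.81 to 8.51 CPM in NanogKO:Esrrb:Nanog, 6.2 to 7.04 CPM in NanogKO:Esrrb and 8.84 to 10.1 CPM in NanogKO. Neural markers (3 of 5) summed to 60.7 to 70.8 CPM in NanogKO:Esrrb:Nanog, 48.3 to 57.5 CPM in NanogKO:Esrrb and 55.4 to 63.9 CPM in NanogKO. The neural sum in NanogKO:Esrrb:Nanog lay above that in NanogKO:Esrrb without overlap, but its genes differed. Pax6 averaged 7.82 CPM in NanogKO:Esrrb:Nanog, 7.2 CPM in NanogKO:Esrrb and 13.8 CPM in NanogKO. In the same order Sox1 averaged 25.4, 18.1 and 15.7 CPM, and Nes 31.5, 26.6 and 29.3 CPM. Mesendoderm markers (3 of 4) summed to 19 to 21.6 CPM in NanogKO:Esrrb:Nanog, 15.8 to 19.6 CPM in NanogKO:Esrrb and 18.7 to 21.3 CPM in NanogKO. The fibroblast sum was highest in NanogKO without overlap with either other group, but its 2 genes differed. Col1a2 averaged 4.15 CPM in NanogKO:Esrrb:Nanog, 4.62 CPM in NanogKO:Esrrb and 6.52 CPM in NanogKO, while Twist1 averaged 3.74 CPM in NanogKO:Esrrb:Nanog, 1.95 CPM in NanogKO:Esrrb and 2.91 CPM in NanogKO. The part of any of these lists in the results was not tested.

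The 6 genes fell into unlike patterns. At Pou5f1, Sall1 and Utf1 the summed accessibility rose in both groups with Esrrb, though not every region did. Sall4 gained it inside the gene and lost it on one side outside, Sox2 held regions that moved both ways, and Lin28a changed mainly at a single region that nearly closed. Of all 129 regions, 54 rose and 21 fell in NanogKO:Esrrb:Nanog against NanogKO, by edgeR's quasi-likelihood test at an adjusted p under 0.05 over all regions, where 24.9% and 24.4% of all 157439 tested regions were called higher and lower. With NanogKO:Esrrb set against NanogKO, 43 rose and 14 fell, against 20% and 17% of all regions. Between NanogKO:Esrrb:Nanog and NanogKO:Esrrb, 21 were higher and 15 lower, against 12.6% and 12% of all. As shares of the members these counts were 41.9% and 16.3%, then 33.3% and 10.9%, then 16.3% and 11.6%. The members' median log2 fold changes were 0.23, 0.19 and 0.01 in these comparisons, where the median over all regions was -0.01 each time. All 3 comparisons share libraries in pairs, so their values are set side by side and not as independent evidence. Where 0 regions of a gene, or of a side of it, were called in a direction, DESeq2 called 0 as well and 0 had an unadjusted p under 0.05, except at an unadjusted p under 0.05 for 2 regions of Lin28a, higher in NanogKO:Esrrb:Nanog than in NanogKO, and 2 inside Sall1, higher in NanogKO:Esrrb:Nanog than in NanogKO:Esrrb.

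**Figure D1:**
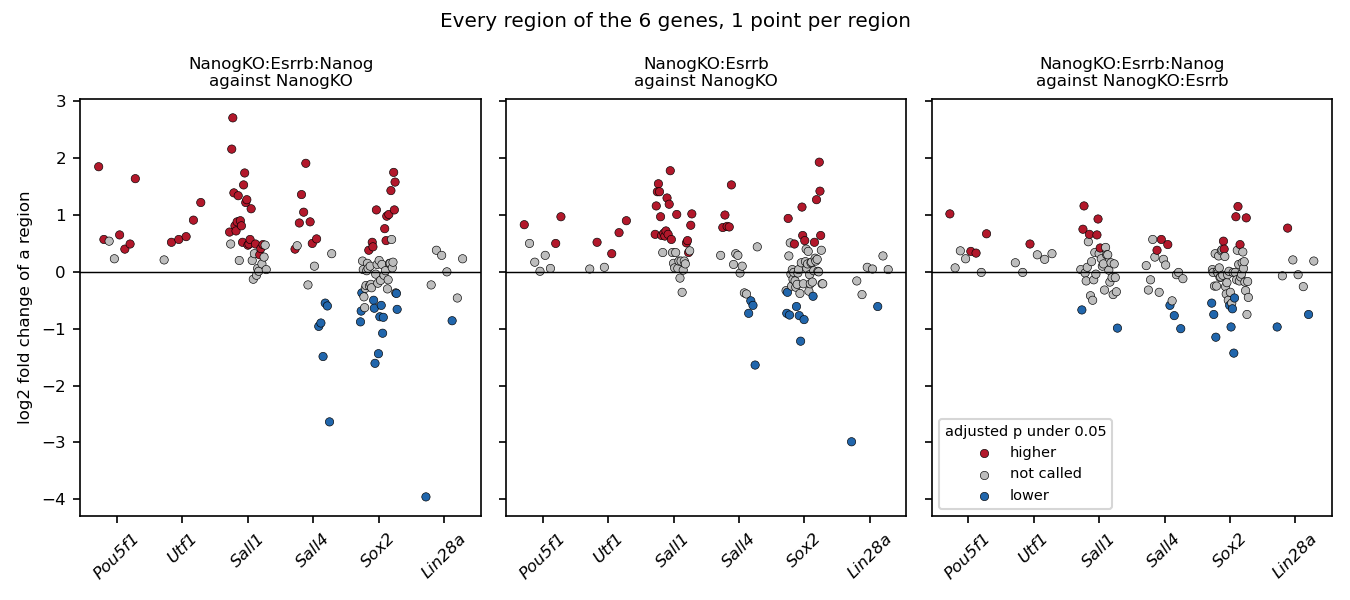
Log2 fold change (vertical axis) of every region of the 6 genes (horizontal axis), 1 point per region, in the 3 comparisons, red where called higher, blue where called lower and grey where not called at an adjusted p under 0.05. The regions of Pou5f1, Sall1 and Utf1 that were called against NanogKO all lie above 0, while Sox2 and Sall4 have points on both sides and Lin28a has 1 region near -3.96 and -2.99.

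Summed over a gene's regions, with the same sum tested for 19087 protein-coding genes, the loci of Pou5f1, Sall1 and Utf1 passed in both comparisons with NanogKO, where 25.6% of all genes were called higher in NanogKO:Esrrb:Nanog and 12.5% in NanogKO:Esrrb. Those of Sox2, Sall4 and Lin28a did not pass. The Pou5f1 locus held 137, 128 and 133 CPM in NanogKO:Esrrb:Nanog, 95.8, 98.7 and 83.1 CPM in NanogKO:Esrrb, against 68.5, 61.1 and 66.4 CPM in NanogKO. No 2 groups overlapped. Its log2 fold change (± SE) was 1.02 ± 0.08 for NanogKO:Esrrb:Nanog against NanogKO (edgeR's quasi-likelihood test, adjusted p = 2.6e-08), 0.50 ± 0.07 for NanogKO:Esrrb against NanogKO (adjusted p = 8.5e-05) and 0.52 ± 0.07 between NanogKO:Esrrb:Nanog and NanogKO:Esrrb (adjusted p = 0.00029). Of the 6 loci, Pou5f1 alone passed all 3 comparisons at an adjusted p under 0.01.

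The Sall1 locus held 308, 314 and 302 CPM in NanogKO:Esrrb:Nanog, 273, 299 and 249 CPM in NanogKO:Esrrb, against 200, 199 and 195 CPM in NanogKO. The groups did not overlap. It rose by 0.64 ± 0.06 in NanogKO:Esrrb:Nanog (adjusted p = 5e-07) and by 0.47 ± 0.06 in NanogKO:Esrrb (adjusted p = 3e-05) on the log2 scale, both against NanogKO. The difference of 0.17 ± 0.06 between NanogKO:Esrrb:Nanog and NanogKO:Esrrb missed the threshold (adjusted p = 0.053), and passed it with the replicate number as a block (0.17, adjusted p = 0.011), without NanogKO:Esrrb replicate 2 (0.23, adjusted p = 0.015) and without NanogKO:Esrrb:Nanog replicate 3 (0.19, adjusted p = 0.025). In this comparison the summed loci of all 19087 genes had a median of 0.09, with 19.3% called higher and 5.69% lower.

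The Utf1 locus held 155, 145 and 153 CPM in NanogKO:Esrrb:Nanog, 142, 133 and 126 CPM in NanogKO:Esrrb, against 112, 105 and 106 CPM in NanogKO, again with no overlap. It rose by 0.49 ± 0.06 in NanogKO:Esrrb:Nanog (adjusted p = 1e-05) and by 0.31 ± 0.06 in NanogKO:Esrrb (adjusted p = 0.0013) against NanogKO. NanogKO:Esrrb:Nanog exceeded NanogKO:Esrrb by 0.18 ± 0.06 (adjusted p = 0.045), in a comparison where 19.3% of all genes were called higher and the median over all genes was 0.09. That call was lost without NanogKO replicate 2 (adjusted p = 0.062) or 3 (0.068), NanogKO:Esrrb replicate 2 (0.1) or 3 (0.17), or NanogKO:Esrrb:Nanog replicate 1 (0.12) or 2 (0.071), with log2 fold changes of 0.14 to 0.22.

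The Sox2 locus held 402, 395 and 373 CPM in NanogKO:Esrrb:Nanog, 388, 370 and 371 CPM in NanogKO:Esrrb, against 384, 350 and 345 CPM in NanogKO, and every pair of groups overlapped. Its log2 fold changes were 0.12 ± 0.06 for NanogKO:Esrrb:Nanog against NanogKO (adjusted p = 0.097) and 0.07 ± 0.06 for NanogKO:Esrrb against NanogKO (adjusted p = 0.39), and the first passed without NanogKO replicate 1 (0.17, adjusted p = 0.035) or NanogKO:Esrrb:Nanog replicate 3 (0.15, adjusted p = 0.033). The Sall4 locus held 172, 157 and 148 CPM in NanogKO:Esrrb:Nanog, 152, 154 and 143 CPM in NanogKO:Esrrb, against 167, 153 and 149 CPM in NanogKO. Its log2 fold changes were 0.02 ± 0.07 and -0.06 ± 0.07 for NanogKO:Esrrb:Nanog and NanogKO:Esrrb against NanogKO (adjusted p = 0.81 and 0.5), and all groups overlapped. Limited to regions within 10 kb, the Sall4 sum passed in both, at 0.54 for NanogKO:Esrrb:Nanog (adjusted p = 2.1e-05) and, with its sign turned, 0.34 for NanogKO:Esrrb (adjusted p = 0.0025). The Lin28a locus held 96.6, 76.8 and 73.4 CPM in NanogKO:Esrrb:Nanog, 82, 82.7 and 75.3 CPM in NanogKO:Esrrb, against 103, 92.1 and 85.7 CPM in NanogKO, with NanogKO:Esrrb below NanogKO in every library. Against NanogKO the log2 fold changes were -0.18 ± 0.09 in NanogKO:Esrrb:Nanog (adjusted p = 0.12) and -0.22 ± 0.09 in NanogKO:Esrrb (adjusted p = 0.08). With the replicate number as a block, the Lin28a value for NanogKO:Esrrb passed (-0.22, adjusted p = 0.0074). It also passed without NanogKO:Esrrb:Nanog replicate 1 (-0.22, adjusted p = 0.021) or 3 (-0.23, adjusted p = 0.031), and the value for NanogKO:Esrrb:Nanog passed without its replicate 1 (-0.32, adjusted p = 0.0044).

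**Figure D2:**
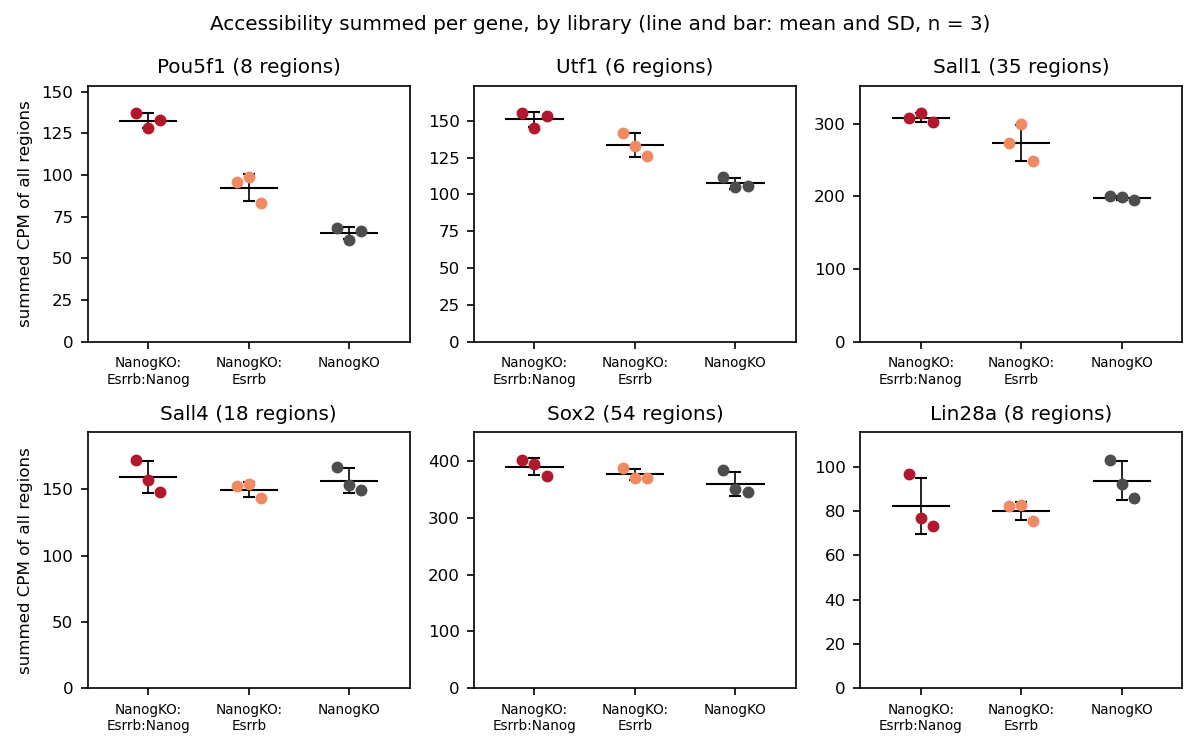
Summed CPM of all regions of each gene (vertical axes, from 0) in the 9 libraries, by group (NanogKO:Esrrb:Nanog, NanogKO:Esrrb, NanogKO from left to right), with a line for the mean and a bar for the SD of 3 libraries. Pou5f1, Utf1 and Sall1 step down from left to right without overlap, while Sall4 and Sox2 overlap between all groups.

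Pou5f1 (gene 18999, GRCm38 chr17:35506032-35510777) had 6 of its 8 regions higher in NanogKO:Esrrb:Nanog and 3 higher in NanogKO:Esrrb, with 0 lower in either, against NanogKO. The higher shares were 75% and 37.5%, against 24.9% and 20% of all regions. Between NanogKO:Esrrb:Nanog and NanogKO:Esrrb, 4 were higher (50%, against 12.6% of all regions) and 0 lower. The higher count was 2 without NanogKO:Esrrb replicate 3 or without NanogKO:Esrrb:Nanog replicate 1. The most accessible Pou5f1 region lay inside the gene, towards its end (chr17:35509309-35510042, starting 3277 bp past the start). It held 56.3, 53.3 and 50.6 CPM in NanogKO:Esrrb:Nanog, 35, 34.9 and 31.1 CPM in NanogKO:Esrrb, against 17.7, 15 and 18.9 CPM in NanogKO, with 3 separate levels. That is 1.64 ± 0.12 and 0.97 ± 0.11 on the log2 scale for NanogKO:Esrrb:Nanog and NanogKO:Esrrb against NanogKO (adjusted p = 1e-11 and 2e-07), and 0.67 ± 0.11 between the groups with Esrrb (adjusted p = 0.00015). This region alone held 35.9% of the locus' summed CPM.

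A region 15199 bp before the gene (chr17:35490302-35490833) changed by a larger factor. It held 18.2, 18.7 and 20.8 CPM in NanogKO:Esrrb:Nanog, 8.45, 12.2 and 7.72 CPM in NanogKO:Esrrb, against 4.37, 5.36 and 6.2 CPM in NanogKO. Every NanogKO:Esrrb:Nanog library lay above every NanogKO:Esrrb library, and these above every NanogKO library. The region rose 3.61-fold in NanogKO:Esrrb:Nanog (log2 1.85 ± 0.16, adjusted p = 3e-10) and 1.78-fold in NanogKO:Esrrb (log2 0.83 ± 0.16, adjusted p = 0.00014) against NanogKO, and 2.03-fold between the groups with Esrrb (log2 1.02 ± 0.15, adjusted p = 3.6e-05).

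Upstream of Pou5f1, the gene's distal and proximal enhancers are known to lie in the stretch that holds regions 1683 bp (chr17:35503733-35504349) and 1017 bp (chr17:35504569-35505015) before the start, which were singled out for that position after their values were seen. The farther one held 22.7, 21.8 and 21.5 CPM in NanogKO:Esrrb:Nanog, 18.1, 19.7 and 13.7 CPM in NanogKO:Esrrb, against 16.1, 13.3 and 12.7 CPM in NanogKO. It was higher in NanogKO:Esrrb:Nanog than in NanogKO by 0.65 ± 0.13 (log2, adjusted p = 0.00018), while in NanogKO:Esrrb, whose libraries overlapped those of NanogKO, the difference of 0.29 ± 0.13 did not pass (adjusted p = 0.083) and passed with the replicate block (adjusted p = 0.042), without NanogKO replicate 1 (0.40, adjusted p = 0.039) and without NanogKO:Esrrb replicate 3 (0.43, adjusted p = 0.015). The nearer one held 24, 20.3 and 23.1 CPM in NanogKO:Esrrb:Nanog, 19.5, 17.3 and 16.8 CPM in NanogKO:Esrrb, against 18.6, 15.6 and 17.2 CPM in NanogKO. Its log2 differences from NanogKO were 0.40 ± 0.12 in NanogKO:Esrrb:Nanog (adjusted p = 0.0066, or 0.054 without NanogKO replicate 2) and 0.06 ± 0.12 in NanogKO:Esrrb (adjusted p = 0.72). NanogKO:Esrrb:Nanog exceeded NanogKO:Esrrb at both, by 0.36 ± 0.13 and 0.33 ± 0.12 (adjusted p = 0.044 and 0.037). Without NanogKO:Esrrb replicate 3 these became 0.22 (adjusted p = 0.27) and 0.29 (adjusted p = 0.14), and without NanogKO:Esrrb:Nanog replicate 1 they were 0.33 (adjusted p = 0.11) and 0.29 (adjusted p = 0.12). At the farther region this call was also lost without NanogKO replicate 2 or 3, NanogKO:Esrrb replicate 1 and NanogKO:Esrrb:Nanog replicate 2, and at the nearer one without NanogKO:Esrrb replicate 2.

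The region at the Pou5f1 start (chr17:35505605-35505906), which ends 126 bp before the gene and covers the upstream part of the promoter printed above, was weak by comparison. It held 5.85, 5.08 and 8.11 CPM in NanogKO:Esrrb:Nanog, 6.38, 6.58 and 6.37 CPM in NanogKO:Esrrb, against 4.41, 4.5 and 4.76 CPM in NanogKO. NanogKO lay below both other groups, which overlapped. Against NanogKO the log2 fold changes were 0.49 ± 0.16 in NanogKO:Esrrb:Nanog (adjusted p = 0.014) and 0.50 ± 0.16 in NanogKO:Esrrb (adjusted p = 0.016). Without NanogKO:Esrrb:Nanog replicate 3 the first fell to 0.26 (adjusted p = 0.16), and the other was lost without NanogKO replicate 1 (0.48, adjusted p = 0.054) or 2 (0.49, adjusted p = 0.051). The other 3 Pou5f1 regions, 3371 to 9191 bp before the gene, averaged between 1.16 and 5.16 CPM per group.

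**Figure D3:**
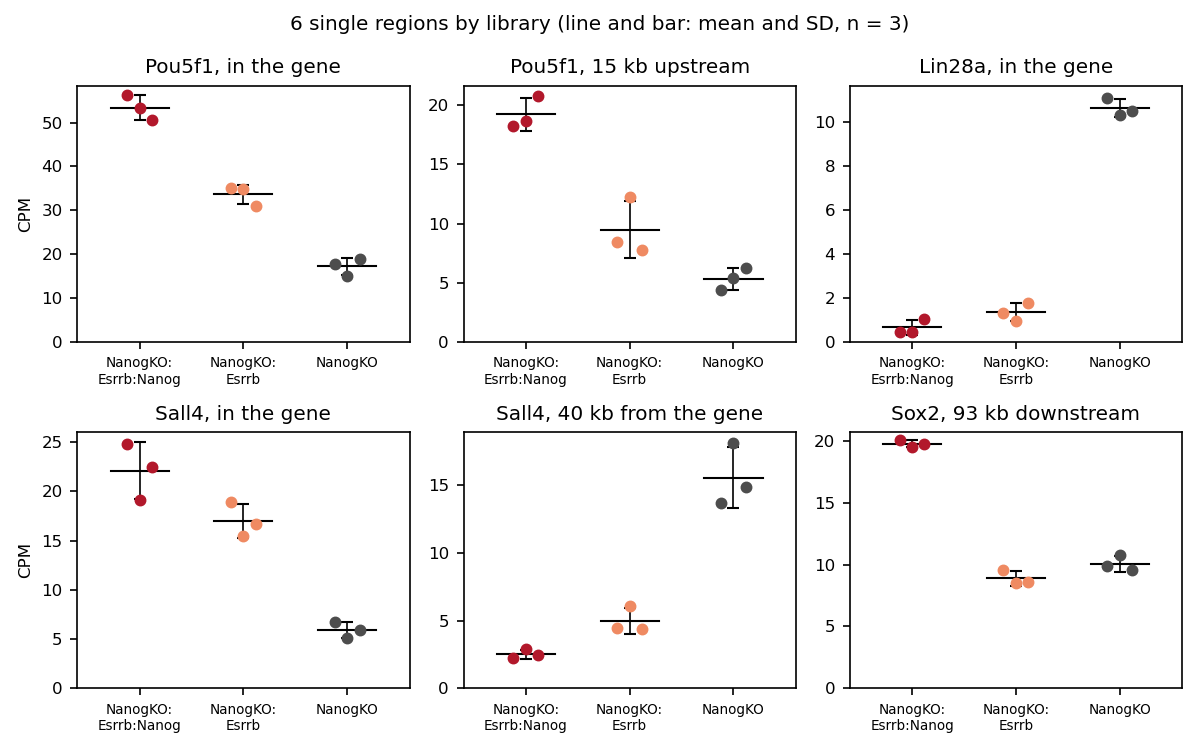
CPM (vertical axes, from 0) of 6 single regions in the 9 libraries, by group, with a line for the mean and a bar for the SD of 3 libraries. Both Pou5f1 regions and the one inside Sall4 fall from left to right, the Lin28a region and the Sall4 region 40382 bp away are high in NanogKO alone, and the Sox2 region is high in NanogKO:Esrrb:Nanog alone.

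Sox2 (gene 20674, chr3:34649995-34652461) had the most regions, and its nearest protein-coding neighbour, Dnajc19, is 568641 bp away. In NanogKO:Esrrb:Nanog, 12 of 54 regions were higher and 13 lower than in NanogKO, and in NanogKO:Esrrb 10 were higher and 8 lower. Between the groups with Esrrb, 6 were higher and 8 lower in NanogKO:Esrrb:Nanog. These shares, 22.2% and 24.1%, 18.5% and 14.8%, and 11.1% and 14.8%, lay close to the shares of all regions given above. From 120 to 150 kb past the gene, 3 of 7 regions were higher in each group with Esrrb, and 2 were lower in NanogKO:Esrrb:Nanog, against NanogKO. That is 42.9% higher, against 24.9% and 20% of all regions, and 28.6% lower, against 24.4%. One lower call, at chr3:34800885, was lost with DESeq2 (-0.65, adjusted p = 0.051) and without any 1 of the NanogKO replicates. The higher call in NanogKO:Esrrb at chr3:34787163 was lost without NanogKO replicate 3 (0.58, adjusted p = 0.063) or NanogKO:Esrrb replicate 1 or 2. The 120 to 150 kb stretch was picked with its values known. Regions 50 to 100 kb from the gene leaned lower against NanogKO. Of those 14, 6 were lower (42.9%) and 3 higher for NanogKO:Esrrb:Nanog, while NanogKO:Esrrb had 3 lower calls (21.4%) and 0 higher. The 12 upstream regions had 3 lower calls in each group with Esrrb, with 0 higher for NanogKO:Esrrb:Nanog and 1 for NanogKO:Esrrb. Over the whole locus, counts of lower regions leaned on single libraries. Against NanogKO, the count for NanogKO:Esrrb:Nanog was 7 without NanogKO replicate 2. For NanogKO:Esrrb it was 4 without NanogKO replicate 1 and 5 without NanogKO:Esrrb replicate 1. Between the groups with Esrrb the lower count was 5 without NanogKO:Esrrb replicate 1, 2 without its replicate 3, and 4 without NanogKO:Esrrb:Nanog replicate 1 or 2.

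The region over the Sox2 start (chr3:34649820-34651366), the widest of the locus at 1547 bp, covers the part of the printed promoter next to the start and much of the gene. It held 49.5, 44.7 and 44 CPM in NanogKO:Esrrb:Nanog, 55, 42.8 and 50.7 CPM in NanogKO:Esrrb, against 38.7, 33.6 and 33.8 CPM in NanogKO. NanogKO lay below both other groups. The log2 fold change was 0.38 ± 0.12 in NanogKO:Esrrb:Nanog (adjusted p = 0.0076) and 0.49 ± 0.12 in NanogKO:Esrrb (adjusted p = 0.0015) against NanogKO, and -0.10 ± 0.11 between NanogKO:Esrrb:Nanog and NanogKO:Esrrb, which did not pass (adjusted p = 0.54). Within 10 kb of the gene, this was the only region of 7 called for NanogKO:Esrrb:Nanog against NanogKO.

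About as far downstream as the known distal control region of Sox2, an enhancer cluster on which Sox2 expression in mouse embryonic stem cells depends, 7 regions lay 100 to 120 kb past the gene. The 2 with the highest CPM did not pass against NanogKO. At chr3:34761116-34761617 the libraries held 45, 37.6 and 33.2 CPM in NanogKO:Esrrb:Nanog, 42.4, 41.1 and 35.8 CPM in NanogKO:Esrrb, against 40.4, 32.6 and 31.5 CPM in NanogKO, all groups overlapping (log2 0.15 ± 0.13 and 0.19 ± 0.13 for the 2 groups with Esrrb against NanogKO, adjusted p = 0.35 and 0.24). At chr3:34759860-34760620 they held 35.5, 27.2 and 27.3 CPM in NanogKO:Esrrb:Nanog, 34.4, 31.4 and 30.1 CPM in NanogKO:Esrrb, against 32, 23.4 and 25.8 CPM in NanogKO (log2 0.15 ± 0.13 and 0.24 ± 0.13, adjusted p = 0.34 and 0.14). The value for NanogKO:Esrrb at this region passed with the replicate block (0.25, adjusted p = 0.033) and without NanogKO replicate 1 (0.38, adjusted p = 0.039).

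The regions that did change in this stretch flank the 2 with the highest CPM, which are wider. Per kb of region, chr3:34757807-34758066 averaged 55.4 CPM over the 9 libraries. That lay between chr3:34761116-34761617 (75.2) and chr3:34759860-34760620 (39), so not every changed region was a weak one. At chr3:34757807-34758066, 105346 bp past the gene, the libraries held 21.7, 19 and 17.9 CPM in NanogKO:Esrrb:Nanog, 15.9, 14.3 and 11.8 CPM in NanogKO:Esrrb, against 9.93, 10.1 and 9.14 CPM in NanogKO, without overlap. The log2 fold change was 1.01 ± 0.13 in NanogKO:Esrrb:Nanog (adjusted p = 2.9e-07) and 0.52 ± 0.13 in NanogKO:Esrrb (adjusted p = 0.0019) against NanogKO, and 0.48 ± 0.13 between the groups with Esrrb (adjusted p = 0.007, or 0.064 without NanogKO:Esrrb replicate 3). At chr3:34765330-34765530, 112869 bp past the gene, NanogKO:Esrrb:Nanog held 4.96, 4.84 and 4.76 CPM, NanogKO:Esrrb 4.55, 4.94 and 3.51 CPM and NanogKO 1.61, 1.49 and 2.29 CPM. NanogKO lay below the other 2 groups, which overlapped (log2 1.43 ± 0.19 and 1.27 ± 0.19 against NanogKO, adjusted p = 6.5e-07 and 7.2e-06). The other 3 regions of the stretch averaged between 1.44 and 4.96 CPM per group and did not pass in any comparison, although the one 117395 bp past the gene passed for NanogKO:Esrrb:Nanog against NanogKO without NanogKO replicate 3 (0.82, adjusted p = 0.017) or NanogKO:Esrrb:Nanog replicate 1 (0.75, adjusted p = 0.02).

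**Figure D4:**
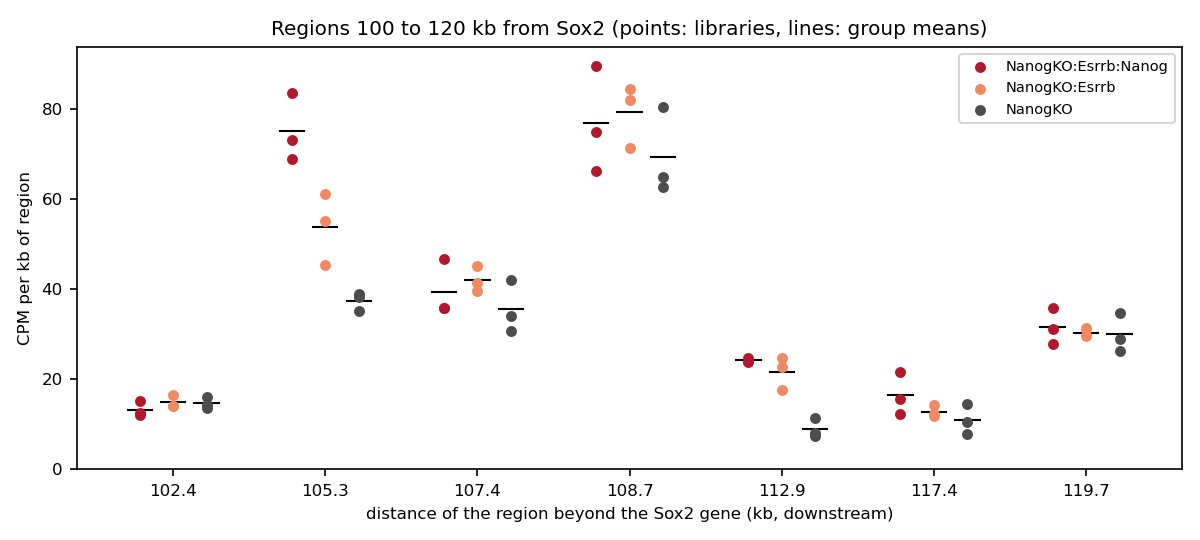
CPM per kb of region (vertical axis, from 0) at the 7 regions 100 to 120 kb past Sox2, in order of distance (horizontal axis, kb, not to scale), with 1 point per library, a line for each group mean, and the groups NanogKO:Esrrb:Nanog, NanogKO:Esrrb and NanogKO side by side. All 3 groups are apart at 105346 bp, NanogKO alone is apart at 112869 bp, and the groups overlap at the regions between them.

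Elsewhere around Sox2 the named regions took different patterns. One 92684 bp past the gene (chr3:34745145-34745491) held 20.1, 19.5 and 19.8 CPM in NanogKO:Esrrb:Nanog, against 9.6, 8.51 and 8.59 CPM in NanogKO:Esrrb, with 9.88, 10.8 and 9.53 CPM in NanogKO. It was high in NanogKO:Esrrb:Nanog alone, by 0.98 ± 0.12 over NanogKO and 1.15 ± 0.12 over NanogKO:Esrrb (log2, adjusted p = 1.2e-07 and 2.6e-07), while NanogKO:Esrrb and NanogKO overlapped (-0.18 ± 0.12, adjusted p = 0.25). One 125984 bp past the gene (chr3:34778445-34778595) held 1.49, 2.23 and 1.68 CPM in NanogKO:Esrrb:Nanog, 1.99, 2.19 and 1.88 CPM in NanogKO:Esrrb, against 0.463, 0.606 and 0.507 CPM in NanogKO. It was high in both groups with Esrrb (1.75 ± 0.26 and 1.93 ± 0.25 against NanogKO, adjusted p = 2.4e-06 and 8.4e-07), at low counts of 19 to 131 per library.

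The named falls near Sox2 were at weak regions. One 27184 bp past the gene (chr3:34679645-34680193) held 1.37, 1.53 and 1.42 CPM in NanogKO:Esrrb:Nanog, 2.07, 1.86 and 1.72 CPM in NanogKO:Esrrb, against 4.15, 5.35 and 3.63 CPM in NanogKO. NanogKO lay above the other groups (-1.61 ± 0.20 and -1.22 ± 0.19 against it, adjusted p = 2e-07 and 1.4e-05). One 69972 bp past the gene (chr3:34722433-34722627) had only 12 to 47 counts per library and held 0.27, 0.352 and 0.225 CPM in NanogKO:Esrrb:Nanog, 0.715, 0.703 and 0.818 CPM in NanogKO:Esrrb, against 0.463, 0.661 and 0.608 CPM in NanogKO, so that NanogKO:Esrrb:Nanog lay below both (-1.43 ± 0.33 against NanogKO:Esrrb, adjusted p = 0.0025, and -1.08 ± 0.34 against NanogKO, adjusted p = 0.0098). The locus is also crossed by the long noncoding RNA gene Sox2ot (chr3:34560381-34677993), from which regions were not set apart.

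Sall4 (gene 99377, chr2:168748332-168767201) split by position. Of the 10 regions inside the gene, 7 were higher in NanogKO:Esrrb:Nanog and 5 in NanogKO:Esrrb than in NanogKO, and 0 were lower. Of the 8 outside it, all on the side of higher coordinates (Atp9a lies 5962 bp away on the other side), 1 was higher and 6 lower in NanogKO:Esrrb:Nanog, and 0 higher and 4 lower in NanogKO:Esrrb. As shares, 70% and 50% inside were higher, against 24.9% and 20% of all regions. Outside, 75% and 50% were lower, against 24.4% and 17%. The median log2 fold changes inside were 0.68 and 0.55, and outside -0.75 and -0.45. Without NanogKO replicate 2, the higher count inside for NanogKO:Esrrb was 3. Between NanogKO:Esrrb:Nanog and NanogKO:Esrrb, 3 of the 18 were higher and 3 lower. That is 16.7% each, near the 12.6% and 12% of all regions. The higher count was 1 without NanogKO:Esrrb replicate 3 and 0 without NanogKO:Esrrb:Nanog replicate 1. The start of Sall4 is not in the promoter table used here, and which end these regions flank is not given.

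The strongest rise of Sall4 was inside the gene (chr2:168761095-168761603). It held 24.8, 19.1 and 22.5 CPM in NanogKO:Esrrb:Nanog, 18.9, 15.5 and 16.7 CPM in NanogKO:Esrrb, against 6.73, 5.13 and 5.9 CPM in NanogKO. The groups did not overlap, and the step from NanogKO was the large one: 1.91 ± 0.14 in NanogKO:Esrrb:Nanog (adjusted p = 1.1e-11) and 1.53 ± 0.14 in NanogKO:Esrrb (adjusted p = 1.6e-09). The difference between the groups with Esrrb was 0.38 ± 0.13 (adjusted p = 0.031). It was lost without NanogKO:Esrrb replicate 2 (0.31, adjusted p = 0.12) or 3 (0.36, adjusted p = 0.093) and without NanogKO:Esrrb:Nanog replicate 1 (0.29, adjusted p = 0.15).

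A region near the end of Sall4 with the higher coordinate (chr2:168766730-168767376) held 31.6, 30.3 and 22.6 CPM in NanogKO:Esrrb:Nanog, 28, 26.7 and 23.2 CPM in NanogKO:Esrrb, against 28.8, 25.9 and 24.1 CPM in NanogKO. All groups overlapped, and the log2 differences from NanogKO, 0.10 ± 0.13 and -0.02 ± 0.13, did not pass (adjusted p = 0.54 and 0.93). The noncoding RNA gene Gm14261 (chr2:168766143-168768110) overlaps it. Between it and the strong internal region, one at chr2:168765076-168765231 held 10.1, 9.98 and 6.36 CPM in NanogKO:Esrrb:Nanog, 5.52, 6.4 and 5.83 CPM in NanogKO:Esrrb, against 4.88, 4.81 and 4.58 CPM in NanogKO. It was higher in NanogKO:Esrrb:Nanog than in NanogKO:Esrrb by 0.57 ± 0.16 (log2, adjusted p = 0.011), with replicate 3 within the range of NanogKO:Esrrb, and this call was lost without NanogKO:Esrrb replicate 1 (0.52, adjusted p = 0.053) and without NanogKO:Esrrb:Nanog replicate 1 (0.45, adjusted p = 0.077) or 2 (0.47, adjusted p = 0.062).

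Away from Sall4 the values went the other way. A region 40382 bp from the gene (chr2:168807583-168808161) held 2.22, 2.9 and 2.44 CPM in NanogKO:Esrrb:Nanog, 4.49, 6.08 and 4.4 CPM in NanogKO:Esrrb, against 13.7, 18.1 and 14.9 CPM in NanogKO. The groups stood in 3 separate levels with NanogKO highest. The region fell by 2.64 ± 0.17 in NanogKO:Esrrb:Nanog (adjusted p = 1.3e-12) and by 1.64 ± 0.15 in NanogKO:Esrrb (adjusted p = 4.7e-09) against NanogKO on the log2 scale, and by 1.00 ± 0.17 between the groups with Esrrb (adjusted p = 0.00014). A region 13470 bp away (chr2:168780671-168781039), singled out after its values were seen, showed the same 3 levels, with 2.7, 3.55 and 1.9 CPM in NanogKO:Esrrb:Nanog, 4.91, 4.61 and 4.12 CPM in NanogKO:Esrrb, against 8.39, 7.4 and 6.81 CPM in NanogKO. The only region outside the gene that was higher in NanogKO:Esrrb:Nanog than in NanogKO lay 2074 bp away, by 0.58 ± 0.14 (adjusted p = 0.0011).

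Sall1 (gene 58198, chr8:89027242-89044162, minus strand) gained on the side downstream of the gene. There, 17 of 19 regions were higher in NanogKO:Esrrb:Nanog and 15 in NanogKO:Esrrb than in NanogKO, with medians of 0.88 and 0.68. Upstream, 3 and 5 of 10 were higher, with medians of 0.20 and 0.35, and inside the gene 3 and 1 of 6. Of all regions, 24.9% were called higher in NanogKO:Esrrb:Nanog and 20% in NanogKO:Esrrb. The shares here were 89.5% and 78.9% downstream, 30% and 50% upstream, and 50% and 16.7% inside. The 30% upstream and the 16.7% inside lay near those of all regions. Over the locus 23 and 21 of 35 were higher and 0 lower in either comparison. The upstream counts leaned on single libraries: without NanogKO replicate 2 they were 1 for NanogKO:Esrrb:Nanog and 2 for NanogKO:Esrrb, and without NanogKO:Esrrb replicate 1 the count for NanogKO:Esrrb was 3. The nearest other protein-coding gene, Cyld, lies 275296 bp away, and the noncoding RNA gene Gm3134 (chr8:89041243-89071019) crosses the start and part of the upstream side.

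The largest rise among the 129 regions was 34624 bp past the end of Sall1 (chr8:88992324-88992618). It held 6.66, 6.95 and 6.61 CPM in NanogKO:Esrrb:Nanog, 2.62, 3.84 and 2.56 CPM in NanogKO:Esrrb, against 1.2, 1.05 and 0.851 CPM in NanogKO. The 3 groups were fully apart. It rose 6.55-fold in NanogKO:Esrrb:Nanog (log2 2.71 ± 0.20, adjusted p = 2.5e-11) and 2.93-fold in NanogKO:Esrrb (log2 1.55 ± 0.21, adjusted p = 1.1e-06) against NanogKO, and 2.24-fold between the groups with Esrrb (log2 1.16 ± 0.18, adjusted p = 5.9e-05). A region nearer to the gene, 11315 bp past its end (chr8:89015317-89015927), was more accessible. It held 26, 24.9 and 21.8 CPM in NanogKO:Esrrb:Nanog, 19.3, 21.8 and 16.2 CPM in NanogKO:Esrrb, against 6.58, 9.28 and 9.12 CPM in NanogKO. It rose by 1.53 ± 0.14 in NanogKO:Esrrb:Nanog (adjusted p = 8.5e-10) and 1.19 ± 0.14 in NanogKO:Esrrb (adjusted p = 1.5e-07) on the log2 scale. The 0.34 ± 0.13 between the groups with Esrrb missed the threshold (adjusted p = 0.062) and passed with the replicate block (0.35, adjusted p = 0.03), without NanogKO replicate 1 (0.34, adjusted p = 0.048), without NanogKO:Esrrb replicate 2 (0.44, adjusted p = 0.036) and without NanogKO:Esrrb:Nanog replicate 3 (0.42, adjusted p = 0.02).

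The region over the Sall1 start (chr8:89043409-89044220) held 36.5, 31.8 and 22.9 CPM in NanogKO:Esrrb:Nanog, 27.1, 23.8 and 22.9 CPM in NanogKO:Esrrb, against 24.9, 20.8 and 19.2 CPM in NanogKO. Every pair of groups overlapped, and replicate 3 of NanogKO:Esrrb:Nanog was the low one of its group. It was higher in NanogKO:Esrrb:Nanog than in NanogKO by 0.49 ± 0.14 (log2, adjusted p = 0.0047, or 0.053 without NanogKO:Esrrb:Nanog replicate 1). NanogKO:Esrrb differed from NanogKO by 0.19 ± 0.14 (adjusted p = 0.31). The 0.30 ± 0.14 between the groups with Esrrb (adjusted p = 0.11) passed with the replicate block (0.29, adjusted p = 0.034) and without NanogKO:Esrrb:Nanog replicate 3 (0.48, adjusted p = 0.0036).

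Between the groups with Esrrb, 6 of the 35 Sall1 regions rose and 2 fell in NanogKO:Esrrb:Nanog. That is 17.1% and 5.71%, against 12.6% and 12% of all regions. Without NanogKO:Esrrb:Nanog replicate 3, 10 rose. The lower count was 1 without NanogKO:Esrrb replicate 2 or NanogKO:Esrrb:Nanog replicate 1, and 0 without NanogKO:Esrrb:Nanog replicate 2. The named one, 45886 bp upstream (chr8:89090048-89090260), was high in NanogKO:Esrrb alone. It held 0.622, 0.411 and 0.865 CPM in NanogKO:Esrrb:Nanog, against 1.27, 1.31 and 1.3 CPM in NanogKO:Esrrb, with 0.463, 0.735 and 0.689 CPM in NanogKO, with 14 to 78 counts per library. It changed by -0.99 ± 0.28 on the log2 scale between NanogKO:Esrrb:Nanog and NanogKO:Esrrb (adjusted p = 0.012, or 0.062 without NanogKO:Esrrb:Nanog replicate 2) and 1.02 ± 0.28 between NanogKO:Esrrb and NanogKO (adjusted p = 0.0052).

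**Figure D5:**
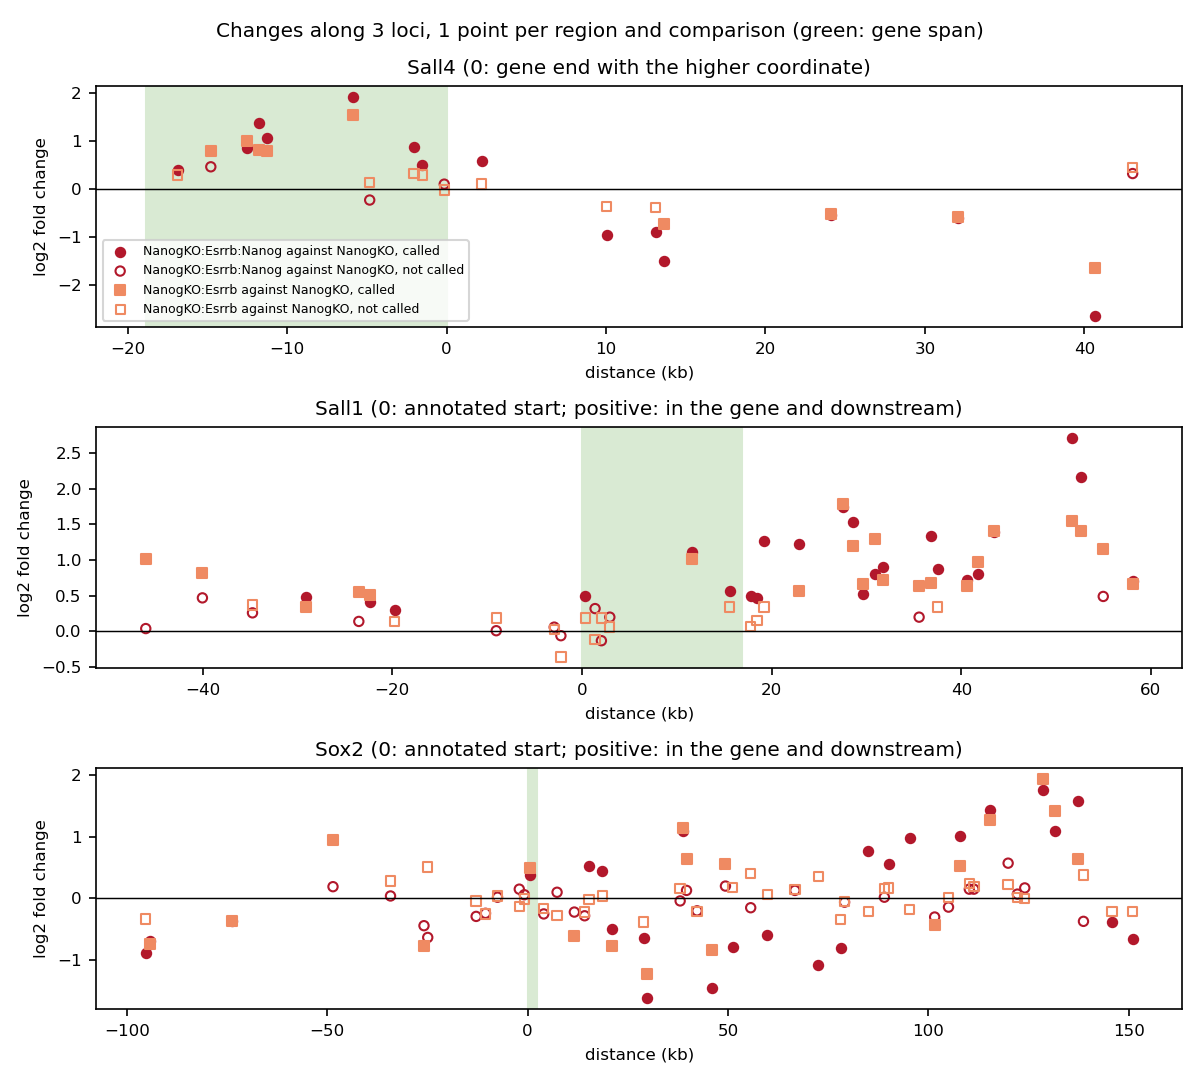
Log2 fold change against NanogKO (vertical axes) of the regions of Sall4, Sall1 and Sox2 by distance (horizontal axes, kb), with circles for NanogKO:Esrrb:Nanog, squares for NanogKO:Esrrb, filled where called and open where not, and the gene's span in green. Called points of Sall4 lie above 0 in the gene and below 0 from 9892 bp outside it, those of Sall1 lie above 0 and are densest past the gene, and those of Sox2 lie on both sides.

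Lin28a (gene 83557, chr4:134003330-134019196, minus strand) had 2 of 8 regions lower and 0 higher in each group with Esrrb than in NanogKO. That is 25% lower, against 24.4% of all regions for NanogKO:Esrrb:Nanog and 17% for NanogKO:Esrrb. The lower count in NanogKO:Esrrb was 1 without NanogKO replicate 2 or NanogKO:Esrrb replicate 1, and in NanogKO:Esrrb:Nanog 1 region was called higher without its replicate 2 and 2 without its replicate 3. The largest fall of all 129 regions was inside this gene (chr4:134006906-134007144), 11672 bp past the start of the promoter table. It held 0.456, 0.469 and 1.04 CPM in NanogKO:Esrrb:Nanog, 1.31, 0.938 and 1.76 CPM in NanogKO:Esrrb, against 11.1, 10.3 and 10.5 CPM in NanogKO. NanogKO stood far above both other groups, and only the authors' NanogKO peak list, of 3, has a peak there. The region was 15.6-fold lower in NanogKO:Esrrb:Nanog (log2 -3.96 ± 0.25, adjusted p = 1.1e-12) and 7.97-fold lower in NanogKO:Esrrb (log2 -2.99 ± 0.22, adjusted p = 9e-11) than in NanogKO. From NanogKO:Esrrb it differed in NanogKO:Esrrb:Nanog by -0.97 ± 0.27 (adjusted p = 0.01), with overlapping libraries, and it was lost without NanogKO:Esrrb replicate 3 (-0.71, adjusted p = 0.088) and without NanogKO:Esrrb:Nanog replicate 1 (-0.74, adjusted p = 0.075) or 2 (-0.81, adjusted p = 0.055).

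The region over the Lin28a start of the promoter table (chr4:134017962-134019071), which covers the window printed above and lies inside the gene span, held 26.3, 20 and 19.2 CPM in NanogKO:Esrrb:Nanog, 21.9, 24.4 and 21.8 CPM in NanogKO:Esrrb, against 24.9, 21.4 and 19.2 CPM in NanogKO. The groups overlapped, and the log2 fold changes against NanogKO, 0.00 ± 0.13 and 0.05 ± 0.13, did not pass (adjusted p = 0.99 and 0.77). Outside the gene span, 348 bp from its end (chr4:134019544-134019919), a weak region averaged 2.69 CPM in NanogKO:Esrrb:Nanog, 3.2 CPM in NanogKO:Esrrb and 4.88 CPM in NanogKO and was lower in both groups with Esrrb (-0.86 ± 0.18 and -0.61 ± 0.18, adjusted p = 0.00027 and 0.0079), the call in NanogKO:Esrrb being lost without NanogKO replicate 2 (-0.52, adjusted p = 0.053) or NanogKO:Esrrb replicate 1 (-0.48, adjusted p = 0.069).

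Inside Lin28a a narrow region (chr4:134013270-134013421) also has a peak in the NanogKO list alone. Yet its mean CPM was highest in NanogKO:Esrrb:Nanog (8.36, against 6.41 in NanogKO), so a missing peak need not mean fewer counts. This narrow region was higher in NanogKO:Esrrb:Nanog than in NanogKO:Esrrb. It held 9.91, 9.3 and 5.88 CPM in NanogKO:Esrrb:Nanog, against 5.11, 5.54 and 3.95 CPM in NanogKO:Esrrb, with 7.05, 6.01 and 6.18 CPM in NanogKO. The difference was 0.77 ± 0.17 (log2, adjusted p = 0.0023), and NanogKO:Esrrb:Nanog overlapped NanogKO (0.38 ± 0.17, adjusted p = 0.071, or 0.59 and 0.0024 without NanogKO:Esrrb:Nanog replicate 3). NanogKO:Esrrb lay below NanogKO by a log2 fold change of -0.40 ± 0.17 that missed the threshold (adjusted p = 0.077) and passed with the replicate block (-0.41, adjusted p = 0.029) and without NanogKO:Esrrb:Nanog replicate 3 (adjusted p = 0.026). A region 4325 bp from the span (chr4:134023521-134024062) did the reverse, with 1.41, 1.38 and 1.75 CPM in NanogKO:Esrrb:Nanog, 2.42, 2.76 and 2.47 CPM in NanogKO:Esrrb, against 2.34, 2.19 and 1.78 CPM in NanogKO (-0.75 ± 0.20 between the groups with Esrrb, adjusted p = 0.0097).

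Utf1 (gene 22286, chr7:139943856-139945112), the smallest locus, had 5 of 6 regions higher in NanogKO:Esrrb:Nanog and 4 in NanogKO:Esrrb than in NanogKO, and 0 lower. The higher shares were 83.3% and 66.7%, against 24.9% and 20% of all regions. The region called in neither comparison lay over the Utf1 start (chr7:139943676-139944753). It had the highest mean CPM of the 6 and, at 1078 bp, the greatest width. It held 49.1, 51.8 and 46.4 CPM in NanogKO:Esrrb:Nanog, 46, 42.9 and 43.1 CPM in NanogKO:Esrrb, against 44.8, 41 and 41.7 CPM in NanogKO. NanogKO:Esrrb:Nanog lay above the other groups but its log2 fold change of 0.21 ± 0.11 over NanogKO did not pass (adjusted p = 0.1), and NanogKO:Esrrb overlapped NanogKO (0.05 ± 0.11, adjusted p = 0.74).

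Just past the end of Utf1, by 332 bp, where its known enhancer lies (chr7:139945444-139946254), the accessibility was higher in both groups with Esrrb. The libraries held 39.8, 34.9 and 43 CPM in NanogKO:Esrrb:Nanog, 44, 37.9 and 36.4 CPM in NanogKO:Esrrb, against 28.8, 26.3 and 27.3 CPM in NanogKO. NanogKO was below both, at log2 fold changes of 0.52 ± 0.11 in NanogKO:Esrrb:Nanog and 0.52 ± 0.11 in NanogKO:Esrrb (adjusted p = 0.00051 and 0.00068), and the groups with Esrrb overlapped (-0.01 ± 0.11, adjusted p = 0.97). This region was singled out for its position after its values were seen. Farther on, 12401 bp past the gene (chr7:139957513-139958415), NanogKO:Esrrb:Nanog held 7.09, 7.66 and 10.6 CPM, NanogKO:Esrrb 7.33, 6.05 and 7.1 CPM, and NanogKO 3.8, 2.85 and 4.34 CPM. It rose by 1.22 ± 0.17 and 0.90 ± 0.17 on the log2 scale in the groups with Esrrb (adjusted p = 1.8e-06 and 0.00017).

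A region 4613 bp past Utf1 (chr7:139949725-139950124) was high in NanogKO:Esrrb:Nanog alone. It held 16.5, 14.1 and 16.2 CPM in NanogKO:Esrrb:Nanog, against 12, 10.8 and 10.5 CPM in NanogKO:Esrrb, with 10.9, 10.5 and 10.1 CPM in NanogKO. NanogKO:Esrrb:Nanog lay above both, by 0.57 ± 0.12 over NanogKO and 0.49 ± 0.12 over NanogKO:Esrrb (log2, adjusted p = 0.0003 and 0.0043), while NanogKO:Esrrb and NanogKO overlapped (0.08 ± 0.12, adjusted p = 0.65). Its neighbour (chr7:139950284-139950900) rose in both, by 0.62 ± 0.11 and 0.32 ± 0.11 against NanogKO (adjusted p = 4.8e-05 and 0.025). For NanogKO:Esrrb that call was lost without NanogKO replicate 1 (adjusted p = 0.075) or 2 (0.084), or NanogKO:Esrrb replicate 1 (0.055) or 2 (0.12). The 0.30 ± 0.11 by which NanogKO:Esrrb:Nanog exceeded NanogKO:Esrrb missed the threshold (adjusted p = 0.051) and passed with the replicate block (adjusted p = 0.028) and without NanogKO:Esrrb replicate 2 (0.36, adjusted p = 0.044). It also passed with RLE size factors (0.31, adjusted p = 0.042) and with DESeq2 (0.31, adjusted p = 0.024).

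Per kb of region, so that genes can be set side by side, the regions over or nearest the start averaged over the 9 libraries 41.9 CPM per kb at Utf1, 41.4 at the Sall4 end, 31.5 at Sall1, 28.2 at Sox2, 19.9 at Lin28a and 19.1 at Pou5f1. These are unlike pieces: the Pou5f1 region ends 126 bp before the gene, and the start of Sall4 is not given. Their widths ran from 302 bp at Pou5f1 to 1547 bp at Sox2. Utf1 and the Sall4 end overlapped in all 3 groups. Sall4 and Sall1 overlapped in NanogKO:Esrrb:Nanog and were apart in both other groups, while Sall1 and Sox2 overlapped in all 3. Sox2 lay above Lin28a without overlap in NanogKO:Esrrb:Nanog and NanogKO:Esrrb and overlapped it in NanogKO, and Lin28a and Pou5f1 overlapped in both groups with Esrrb but not in NanogKO, where Pou5f1 was lower.

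The authors' peak lists, of which the third carries peak names of a NanogKO:Esrrb library and so was given to no group, covered these loci unevenly. Of the 129 regions, 111 overlapped a peak of the NanogKO:Esrrb list, 96 one of the NanogKO list and 102 one of the third list, and 75 overlapped peaks in all 3. All 6 Utf1 regions were in all 3 lists, against 20 of 35 for Sall1 and 29 of 54 for Sox2. Each list is a single file, with no replicates to compare. At the named regions with a peak in both, the third list and the NanogKO:Esrrb list carry the same top score. Examples are 1451 at chr17:35509309-35510042 and 2381 at chr7:139943676-139944753. A region in all 3 lists was therefore not seen 3 separate times.

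Summed CPM over the 9 libraries gave Pou5f1, Sox2, Sall4, Sall1 and Utf1 a profile each, and the 2 protein-coding genes most like each were taken by Pearson's r on log2 CPM among 9929 genes with at least 5 regions and more than 1 Mb away. Pou5f1 was nearest to Krt42 (r = 0.995) and Tspan32 (0.994), Sall1 to Ttc39b and Slc30a1 (0.997 each), and Utf1 to Ythdc2 (0.992) and Tdh (0.989). Sall4 was nearest to Tuba1c (0.979) and Spats2 (0.966), and Sox2 to Sesn1 and Acly (0.962 each). These values describe 9 libraries in 3 groups, which share depth and normalization, and the best of so many genes is high in any case.

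Other genes of the same pathways were read as summed loci, by edgeR's quasi-likelihood test over the 19087 genes. Of 17 other general pluripotency genes, 8 were higher and 0 lower in NanogKO:Esrrb:Nanog than in NanogKO (DESeq2 called 10 and 0, and 0 were lower at an unadjusted p under 0.05), where 25.6% and 19% of all genes were called. In NanogKO:Esrrb 7 were higher and 0 lower (DESeq2 7 and 0, and 0 lower at an unadjusted p under 0.05), against 12.5% and 19.5%. Their median log2 fold changes were 0.18 and 0.15, against 0.04 and -0.05 over all genes. Fgf4, a growth factor gene bound by OCT4 and SOX2, had the largest rise in NanogKO:Esrrb:Nanog (1.03 ± 0.08, adjusted p = 6.5e-08), and Tdgf1, the gene of the NODAL co-receptor Cripto, the largest in NanogKO:Esrrb (0.95 ± 0.09, adjusted p = 8.3e-07). Between the groups with Esrrb, 2 were higher and 1 lower, against 19.3% and 5.69% of all genes, led by Spp1, osteopontin (0.32 ± 0.08, adjusted p = 0.0079) and Fbxo15, an OCT4 target (-0.19 ± 0.06, adjusted p = 0.035).

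Among 8 POU and SOX relatives, 3 were higher and 2 lower in NanogKO:Esrrb:Nanog and 2 higher and 3 lower in NanogKO:Esrrb compared with NanogKO, with medians of 0.03 and -0.16. Pou2f3, a POU factor of tuft cells, rose most (0.63 ± 0.08 and 0.29 ± 0.08, adjusted p = 1.1e-05 and 0.012), and Sox3, a neural SOX gene, fell most (-0.33 ± 0.10 and -0.49 ± 0.10, adjusted p = 0.011 and 0.00097). NanogKO:Esrrb:Nanog had 4 higher than NanogKO:Esrrb, led by Pou2f3 (0.34 ± 0.08, adjusted p = 0.0083), and 0 lower by edgeR, by DESeq2 or at an unadjusted p under 0.05.

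The 13 SALL relatives and NuRD subunits mostly did not pass: 2 were higher and 1 lower in NanogKO:Esrrb:Nanog (DESeq2 4 and 1) and 1 higher and 1 lower in NanogKO:Esrrb, against NanogKO. Hdac2, a deacetylase of the complex, rose (0.71 ± 0.07 and 0.56 ± 0.07, adjusted p = 4.5e-07 and 1.3e-05), and Sall2 fell (-0.29 ± 0.09 and -0.34 ± 0.09, adjusted p = 0.011 and 0.0054). NanogKO:Esrrb:Nanog had 2 higher than NanogKO:Esrrb (DESeq2 4), with Chd4, the remodelling ATPase of the complex, first (0.26 ± 0.08, adjusted p = 0.029), and 0 lower by either tool or at an unadjusted p under 0.05.

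Of 10 genes of the LIN28 and let-7 pathway, 6 were higher and 2 lower in NanogKO:Esrrb:Nanog and 2 higher and 3 lower in NanogKO:Esrrb compared with NanogKO. Dis3l2, the nuclease that degrades uridylated let-7 precursors, fell in both (-0.44 ± 0.07 and -0.47 ± 0.07, adjusted p = 4.4e-05 and 4.2e-05). Dgcr8, a microRNA processing factor, rose most in NanogKO:Esrrb:Nanog (0.44 ± 0.08, adjusted p = 0.00041), and Hmga2, a let-7 target, in NanogKO:Esrrb (0.29 ± 0.06, adjusted p = 0.0016). In NanogKO:Esrrb:Nanog 3 were higher than in NanogKO:Esrrb (DESeq2 4), led by Dgcr8 (0.35 ± 0.08, adjusted p = 0.0075), and 0 lower by either tool or at an unadjusted p under 0.05. As shares these list counts can be read against the same percentages of all genes as above. Between the groups with Esrrb, the median over all genes was 0.09. The list medians there were 0.07 (general pluripotency genes), 0.20 (POU and SOX relatives), 0.15 (SALL and NuRD) and 0.14 (LIN28 and let-7).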

How the data were processed

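ATAC-seq libraries of 3 groups of 3 were compared. The deposited table holds whole-number counts per region as the authors made it, with no normalization; the counter, the transposase shift, duplicate removal and mapping filters are not given in the sources used here. The authors' 3 deposited peak lists hold a peak score each, used only to describe presence. The submitters' processing notes name, with no roles, the build mm10 and MACS2 2.2.0, Bowtie2, cutadapt, deepTools 4.4.0, bedtools 2.26.0, SAMtools 1.4.1 and bcl2fastq 2.19.1. The third peak list carries peak names of a NanogKO:Esrrb library.

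Regions were given to the nearest protein-coding gene of RefSeq GRCm38 within 50 kb (150 kb for Sox2), which 85.1% of regions had within 50 kb, and summed counts per gene were tested for 19087 genes. Members, lists and regions of interest were chosen with earlier results of these data known. Tests used edgeR 4.0.16 in R 4.3.3 (TMM, quasi-likelihood, 1 fit over all 9 libraries, Benjamini-Hochberg adjustment at 0.05), on 157439 of 157497 regions after its filter on low counts. SE is the log2 fold change divided by the square root of F. Alternatives were RLE size factors, no filter, a replicate block, only the 2 groups compared, each library left out, DESeq2 1.42.0, and regions within 10 kb. Also used were limma 3.58.1, bedtools 2.31.1, Python 3.11.15, pandas 2.3.3, numpy 2.4.6 and matplotlib 3.10.9, and the fits were tested on simulated data. CPM use TMM factors, and profiles of like genes are log2 CPM with a prior count of 2. The genes of like profile for Lin28a are not reported here.

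Named regions were the one at each gene's start, in each comparison the called region of smallest p in each direction, and the Sox2 regions 100 to 120 kb away. From each list, the gene that rose most and the gene that fell most in each comparison are named. Same-numbered libraries deviated together for NanogKO:Esrrb and NanogKO (r = 0.117 to 0.152) and for NanogKO:Esrrb:Nanog and NanogKO:Esrrb (0.105 to 0.146), and were taken to pair there, and less for NanogKO:Esrrb:Nanog and NanogKO (0.0022 to 0.136). Libraries of different number gave -0.0946 to -0.0476, -0.0976 to -0.032 and -0.0906 to 0.0445 in these comparisons. The main fits used no block, so p-values printed without a setting leave this pairing out. The pairing was read from the values, as no label gives a culture or date that libraries share. No 2 libraries were copies (chi-square per region 3.55 to 9.49 between replicates). Median counts per region were 96 to 175 per library.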

Additional observations from a re-analysis of the deposited data

How the results depend on the processing

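Of the regions called near the 6 genes, 55 of 75 for NanogKO:Esrrb:Nanog against NanogKO, 38 of 57 for NanogKO:Esrrb against NanogKO and 17 of 36 for NanogKO:Esrrb:Nanog against NanogKO:Esrrb were called under each of 14 other settings. Leaving out 1 library gave 47 to 55 higher and 15 to 20 lower regions in the first comparison, 34 to 44 and 10 to 16 in the next, and 14 to 27 and 9 to 16 between the groups with Esrrb, where 9 stands without NanogKO:Esrrb replicate 3 or NanogKO:Esrrb:Nanog replicate 1 or 2. Limited to 10 kb, 51 regions remain by construction, with 25 higher and 3 lower, 13 and 3, and 11 and 3 in these comparisons.

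Within 10 kb the Sall4 sum was higher in NanogKO:Esrrb:Nanog (0.54, adjusted p = 2.1e-05) and, with its sign turned, in NanogKO:Esrrb (0.34, adjusted p = 0.0025) than in NanogKO; most of the regions that fell lie farther out. For NanogKO:Esrrb:Nanog against NanogKO, the replicate block gave 60 higher and 23 lower regions and passed the sums of Sox2 (0.12, adjusted p = 0.033) and Lin28a (-0.19, adjusted p = 0.015), and the region over the Utf1 start (0.21, adjusted p = 0.043). Same-numbered libraries of these 2 groups correlated at 0.136, 0.0022 and 0.0388 and were not taken to pair. Since the block is 1 factor over all 3 groups, these weak values do not settle whether it applies here. With 1 library left out the sums of Sox2 and Lin28a ranged from 0.09 to 0.17 and from -0.32 to -0.11. For NanogKO:Esrrb against NanogKO the block gave 46 and 15 regions, and the Lin28a sum passed with it (-0.22, adjusted p = 0.0074) and with only the 2 groups compared (-0.22, adjusted p = 0.016), with -0.28 to -0.15 when a library was left out. Between the groups with Esrrb the block gave 26 and 18 regions. The Sall1 sum there passed with the block (0.17, adjusted p = 0.011), RLE factors (0.19, adjusted p = 0.029), DESeq2 (0.19, adjusted p = 0.027) and regions within 10 kb (0.20, adjusted p = 0.036), with 0.11 to 0.23 when a library was left out. The Utf1 sum was lost with only the 2 groups compared (0.18, adjusted p = 0.099) and within 10 kb (0.17, adjusted p = 0.062), with 0.14 to 0.22 when a library was left out. The causes were not tested. Members in all 3 peak lists numbered 75, or 49 where peaks had to cover 50% of the region and 41 with peaks at or above the median score. The weakest region had 5 to 26 counts per library, where only large differences can be seen.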
